A study of Mus musculus with 6 samples.

Results

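The matrix metalloproteinases (Mmp), the membrane-anchored Adam proteases, the secreted Adamts proteases and the tissue inhibitors of metalloproteinases (Timp) were examined in the mouse aorta. Genes were taken by name, as every gene listed whose symbol is Mmp, Timp, Adam or Adamts followed by a number with or without a final letter. This gave 63 of the 18191 genes in the deposited table, made up of 20 Mmp, 4 Timp, 23 Adam and 16 Adamts genes, and 4 further genes with such names are not reported here. RNA of whole aortas was sequenced on the BGISEQ-500 platform in 3 libraries from wild-type mice (WT) and 3 from mice heterozygous for a CRISPR-Cas9 knockout of *Npr1* (Npr1+/-), which encodes the natriuretic peptide receptor 1. All mice were male, no treatment is named, and age and strain are not given in the sources used here. Every Npr1+/- mouse carries the disrupted copy in all of its cells, and the tissue holds the whole vessel wall, with no sorting of its cell types. The labels number the libraries of each genotype 1 to 3 and say no more about how they were taken, so the p-values below measure only the spread between these libraries, which may be technical.

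Matrix metalloproteinases cut collagens, elastin and other proteins of the extracellular matrix, and in the aortic wall they are known for remodelling of the media and for a part in aneurysm and plaque rupture. Adam proteases sit in the cell membrane and release the outer parts of growth factors, cytokines and receptors, while Adamts proteases are secreted and trim procollagens, large proteoglycans and von Willebrand factor. The 4 inhibitors bind the active site, and the balance between inhibitor and protease, together with the removal of a propeptide, sets how much matrix is cut.

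The proteases bind a zinc ion in the active site through 3 histidines. The codons of this zinc box are shown because they divide the genes into those with this site and those without it. Whether the product of a gene acts as a protease was not tested. Each line gives the coding stretch of the GENCODE M21 transcript, 5′ to 3′ in the direction of the gene, with capitals for the codons of the 3 histidines, of the glutamate after the first of them and of the variable residue between the last 2.

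Mmp2: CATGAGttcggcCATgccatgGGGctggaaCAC

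Mmp14: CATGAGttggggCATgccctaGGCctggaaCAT

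Adam10: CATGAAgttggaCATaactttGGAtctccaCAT

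Adam17: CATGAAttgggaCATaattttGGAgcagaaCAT

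Adamts5: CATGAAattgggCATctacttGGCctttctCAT

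Adamts1: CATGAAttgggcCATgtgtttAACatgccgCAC

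Adamts8: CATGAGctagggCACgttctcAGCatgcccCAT

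On GRCm38 the stretch lies in 1 exon at chr8:92839279-92839311 for *Mmp2* (plus strand), chr14:54437627-54437659 for *Mmp14* (plus strand) and chr12:21336732-21336764 for *Adam17* (minus strand), and it is split by an intron within chr9:70754296-70761585 for *Adam10* (plus strand), chr16:85878015-85887826 for *Adamts5*, chr16:85799191-85799545 for *Adamts1* (both on the minus strand) and chr9:30952721-30953378 for *Adamts8* (plus strand). A box was counted only where the variable residue was glycine, asparagine or serine. The box was found in all 20 Mmp genes, in all 16 Adamts genes and in 13 of the 23 Adam genes, and in none of the 4 Timp genes. The variable residue was glycine in every Mmp and in every Adam gene with a box. In the Adamts genes it was glycine in 10, asparagine in 5 (*Adamts1*, *Adamts4*, *Adamts9*, *Adamts15* and *Adamts20*, all from the branch that cuts the proteoglycan versican and its relatives) and serine in *Adamts8*. The 10 Adam genes without the box were *Adam2*, *Adam3*, *Adam4*, *Adam5*, *Adam11*, *Adam18*, *Adam22*, *Adam23*, *Adam29* and *Adam32*. Of these 10, *Adam11* was the one with a mean of at least 1 FPKM in the aorta, against 8 of the 13 Adam genes with the box. FPKM is the number of fragments scaled by the length of the transcript and the size of the library, a level per length that can be compared between genes.

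The libraries held between 13510970 and 16664343 estimated counts, and a gene under 3 counts in a library was taken as not detectable there. *Npr1* itself lay between 112 and 153 FPKM in WT and between 70.35 and 133 FPKM in Npr1+/- aortas, so that the genotypes overlapped. The 6 smooth muscle markers summed to between 4840 and 14700 FPKM, and no marker of the cell types checked was listed at 0 in every library. Npr1+/- 1 stood apart, with the lowest sum of smooth muscle markers and with 334 FPKM of neuron markers, against 67.9 to 82.1 FPKM in the other 5 libraries. In bulk RNA, fewer cells of a type and less RNA per cell cannot be told apart.

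The inhibitors were the most abundant of the 4 families. Their summed level lay between 425 and 663 FPKM per library, against 156 to 273 FPKM for the 20 Mmp genes, 91.05 to 139 FPKM for the Adam genes and 77.45 to 137 FPKM for the Adamts genes. The ratio of the Timp sum to the Mmp sum was 2.13, 2.43 and 2.82 in the WT libraries 1, 2 and 3, and it was 2.73, 2.73 and 2.33 in the Npr1+/- libraries. These ratios overlapped between the genotypes, and each of the 4 family sums was lowest in Npr1+/- 1. Of the 63 genes, 16 had a mean of at least 10 FPKM, 17 lay between 1 and 10 FPKM, 13 between 0.1 and 1 FPKM and 17 below 0.1 FPKM. All 4 Timp genes were in the first class, with 5 Mmp, 4 Adam and 3 Adamts genes, and 8 genes (2 Mmp and 6 Adam) had fewer than 3 counts in every library.

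**Figure D1:**
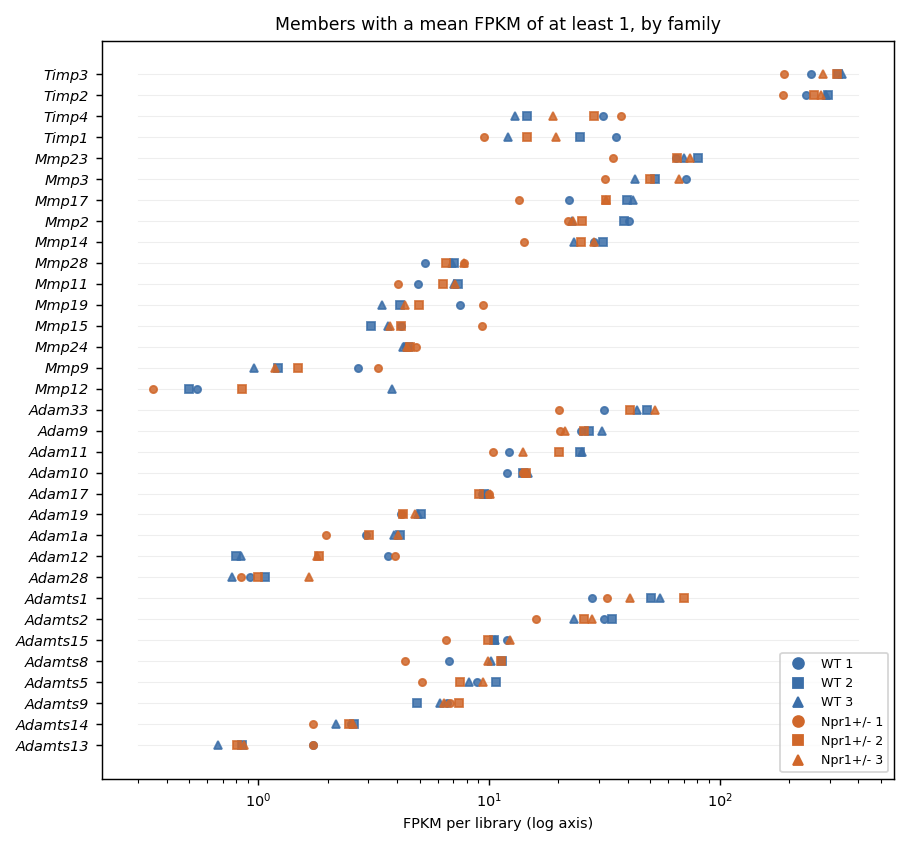
FPKM (log axis) of the 33 genes with a mean of at least 1 FPKM, 1 point for each library, blue for WT and orange for Npr1+/-, with circle, square and triangle for the libraries numbered 1, 2 and 3. *Timp3* and *Timp2* sit apart at the top, and for most genes the orange points lie among the blue ones.

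*Timp3* (NCBI gene 21859, chr10:86300412-86349505), the inhibitor that stays bound to the matrix and also blocks Adam17 and the proteoglycan-cutting Adamts enzymes, had the highest level of the 63 genes. The WT libraries, here and below in the order of their numbers, held 248, 327 and 340.2 FPKM and the Npr1+/- libraries 189.65, 324 and 281 FPKM, which is 305 ± 49.5 (SD, n = 3) against 265 ± 68.5 (SD, n = 3). *Timp2* (NCBI gene 21858, chr11:118301061-118355411), which inhibits Mmp2 and also helps Mmp14 to activate it, was at 238, 297 and 291 FPKM in WT and at 189, 256 and 275 FPKM in Npr1+/- mice. Both genes were lowest in Npr1+/- 1, the genotypes overlapped, and the ranges of *Timp2* and *Timp3* overlapped too. Together they made up 87.9% to 96.2% of the summed Timp level.

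The other 2 inhibitors were an order lower and far more variable. *Timp4* (NCBI gene 110595, chr6:115244444-115252205), the inhibitor known from heart, vessels and fat, was at 31.3, 14.6 and 13.0 FPKM in WT and at 37.55, 28.5 and 18.9 FPKM in Npr1+/- mice. Each Npr1+/- library was above the WT library of the same number, while WT 1 was above 2 of the Npr1+/- libraries. *Timp1* (NCBI gene 21857, chrX:20870166-20874737), the inhibitor induced by inflammatory signals and bound to the proform of Mmp9, was at 35.7, 24.75 and 12.15 FPKM in WT and at 9.55, 14.6 and 19.5 FPKM in Npr1+/- mice. *Timp1* ran from its highest level in WT 1 to its lowest in Npr1+/- 1, and WT 3 lay below 2 of the Npr1+/- libraries.

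Among the Mmp genes, 5 had a mean above 10 FPKM, namely *Mmp23*, *Mmp3*, *Mmp17*, *Mmp2* and *Mmp14*. *Mmp23* (NCBI gene 26561, chr4:155650655-155654539), an unusual member without the hemopexin domain of its relatives, was at 65.0, 80.45 and 70.3 FPKM in WT and at 34.5, 65.3 and 74.25 FPKM in Npr1+/- mice. *Mmp3* (NCBI gene 17392, chr9:7445822-7455975), the stromelysin that cuts proteoglycans and activates other Mmp proforms, was at 71.5, 52.7 and 43.1 FPKM in WT and at 31.8, 49.9 and 66.8 FPKM in Npr1+/- mice. The WT mean of *Mmp23* was 71.9 ± 7.84 (SD, n = 3) and that of *Mmp3* was 55.7 ± 14.4 (SD, n = 3), and both genes were lowest in Npr1+/- 1.

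*Mmp2* (NCBI gene 17390, chr8:92827290-92853421), the gelatinase of connective tissue cells, was at 40.7, 38.6 and 22.9 FPKM in WT and at 22.0, 25.4 and 23.2 FPKM in Npr1+/- mice. WT 1 and WT 2 were above every Npr1+/- library, and WT 3 lay among them. *Mmp14* (NCBI gene 17387, chr14:54431598-54442456), the membrane-type enzyme that activates Mmp2, was at 28.5, 31.3 and 23.3 FPKM in WT and at 14.15, 25.0 and 28.5 FPKM in Npr1+/- mice, so that the genotypes overlapped. *Mmp17* (NCBI gene 23948, chr5:129584151-129611099), a membrane-type enzyme held by a glycolipid anchor, was at 22.2, 39.7 and 42.0 FPKM in WT and at 13.52, 32.2 and 32.3 FPKM in Npr1+/- mice. *Mmp17* was lowest in the library numbered 1 of each genotype, and WT 1 was below 2 of the Npr1+/- libraries.

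The other membrane-type enzymes were lower. *Mmp15* (NCBI gene 17388, chr8:95352296-95374293) was at 4.17, 3.09 and 3.63 FPKM in WT and at 9.28, 4.15 and 3.73 FPKM in Npr1+/- mice, where 1 library, Npr1+/- 1, was 2.36 times the median of all 6. *Mmp24* varied the least of these, between 4.23 and 4.81 FPKM, and its coefficient of variation in WT was 0.683% of normalised CPM, which are counts scaled to a common library size. *Mmp16* had a mean of 0.992 FPKM and *Mmp25*, the membrane-type enzyme of leukocytes, of 0.152 FPKM. Of the secreted enzymes, *Mmp28* had a mean of 6.91 FPKM, *Mmp11* of 6.13 FPKM and *Mmp19* of 5.63 FPKM.

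*Mmp19* (NCBI gene 58223, chr10:128790910-128800827), a secreted enzyme that cuts basement membrane proteins, was at 7.51, 4.13 and 3.42 FPKM in WT and at 9.39, 4.99 and 4.34 FPKM in Npr1+/- mice. *Mmp9* (NCBI gene 17395, chr2:164940326-164955850), the gelatinase of neutrophils and macrophages, was at 2.71, 1.21 and 0.96 FPKM in WT and at 3.29, 1.49 and 1.18 FPKM in Npr1+/- mice. In both genes the libraries numbered 1 were the highest of their genotype, and each Npr1+/- library was above the WT library of the same number. *Mmp12* (NCBI gene 17381, chr9:7344397-7360461), the elastase of macrophages, was at 0.54, 0.50 and 3.79 FPKM in WT and at 0.35, 0.85 and 0 FPKM in Npr1+/- mice. WT 3 alone was 7.29 times the median of the 6 libraries for *Mmp12*, and the 6 macrophage markers were at their lowest sum there, 129 FPKM against up to 322 FPKM.

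*Adam33* and *Adam9* led the Adam family. *Adam33* (NCBI gene 110751, chr2:131050819-131063814), known from smooth muscle and mesenchymal cells, was at 31.5, 48.3 and 44.05 FPKM in WT and at 20.2, 41.0 and 52.5 FPKM in Npr1+/- mice. *Adam9* (NCBI gene 11502, chr8:24949611-25017040), a broadly expressed sheddase, was at 25.15, 27.1 and 30.9 FPKM in WT and at 20.3, 25.8 and 21.3 FPKM in Npr1+/- mice. Npr1+/- 1 was the lowest library for both, and only for *Adam9* was each Npr1+/- library below the WT library of the same number.

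The 2 principal sheddases were among the steadiest genes. *Adam10* (NCBI gene 11487, chr9:70678944-70780229), which cuts Notch receptors and cadherins, was at 12.01, 14.0 and 14.8 FPKM in WT and at 14.1, 14.4 and 14.5 FPKM in Npr1+/- mice. *Adam17* (NCBI gene 11491, chr12:21323509-21373632), which releases tumour necrosis factor and ligands of the epidermal growth factor receptor, was at 9.37, 9.49 and 9.89 FPKM in WT and at 10.05, 9.04 and 10.1 FPKM in Npr1+/- mice. The log2 difference between the genotypes had a 95% interval of -0.22 to 0.39 for *Adam10* and of -0.24 to 0.30 for *Adam17*. Differences of either sign within these bounds are compatible with the values.

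*Adam12* (NCBI gene 11489, chr7:133883199-134225097), a protease of developing muscle, bone and fat, was at 3.63, 0.80 and 0.84 FPKM in WT and at 3.90, 1.83 and 1.80 FPKM in Npr1+/- mice. The libraries numbered 1 were the highest of both genotypes, and the WT coefficient of variation was 91.5% of normalised CPM. *Adam19*, its closest relative, stayed between 4.16 and 5.09 FPKM. *Adam1a* had a mean of 3.32 FPKM and *Adam1b* of 0.005 FPKM. The zinc box of both genes was identical in sequence, the rest of their sequences was not compared, and the split of reads between them was not checked.

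The nervous system Adam genes lack the zinc box and are known as receptors of the secreted Lgi proteins at synapses and on axons. *Adam11* (NCBI gene 11488, chr11:102761413-102780263) was at 12.2, 24.9 and 25.3 FPKM in WT and at 10.4, 20.1 and 14.1 FPKM in Npr1+/- mice, more than 10 times the level of its relatives in every WT library. *Adam22* (NCBI gene 11496, chr5:8072347-8368312) was at 0.79, 0.70 and 0.45 FPKM in WT and at 1.33, 0.96 and 0.90 FPKM in Npr1+/- mice, and *Adam23* (NCBI gene 23792, chr1:63445717-63596111) was at 1.17, 0.78 and 0.36 FPKM in WT and at 2.04, 0.85 and 0.50 FPKM in Npr1+/- mice. *Adam22* and *Adam23* were highest in Npr1+/- 1, the library with the most neuron and Schwann cell marker RNA, and *Adam11* was lowest there. For *Adam22* the genotypes did not overlap.

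*Adamts1* (NCBI gene 11504, chr16:85793827-85803113), which cuts versican, was the highest Adamts gene, at 27.9, 50.6 and 55.1 FPKM in WT and at 32.4, 70.0 and 40.9 FPKM in Npr1+/- mice. *Adamts2* (NCBI gene 216725, chr11:50602085-50807573), the procollagen N-propeptidase of skin and vessel collagen, was at 31.4, 34.0 and 23.4 FPKM in WT and at 15.95, 25.8 and 27.85 FPKM in Npr1+/- mice. The genotypes overlapped in both. The other 2 propeptidases were lower, with a mean of 2.35 FPKM for *Adamts14* and of 0.338 FPKM for *Adamts3*.

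Among the other versican-cutting enzymes, *Adamts15* had a mean of 10.3 FPKM, *Adamts8* of 8.98 FPKM, *Adamts5* of 8.28 FPKM and *Adamts9* of 6.36 FPKM, while *Adamts4* had 0.48 FPKM and *Adamts20* 0.217 FPKM. *Adamts15*, *Adamts8* and *Adamts5* were lowest in Npr1+/- 1, at 6.48, 4.32 and 5.14 FPKM. *Adamts13*, which cuts von Willebrand factor, was at 1.73 and 1.72 FPKM in the libraries numbered 1 and between 0.67 and 0.87 FPKM in the other 4. *Adamts12*, which cuts the cartilage oligomeric matrix protein, was at 0.91 FPKM in Npr1+/- 1 and between 0.19 and 0.57 FPKM elsewhere. *Adamts20* reached 0.57 FPKM in Npr1+/- 1, 4.22 times the median of the 6 libraries.

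Of the members known from leukocytes, *Adam19*, *Mmp9* and, in WT 3, *Mmp12* are given above. *Mmp8*, the collagenase of neutrophils, was at 0.21 FPKM in WT 1 and 0.08 FPKM in Npr1+/- 1 and listed at 0 in the other 4 libraries, and the 6 neutrophil markers summed to 32.4 FPKM in WT 1, to 8.56 FPKM in Npr1+/- 1 and to no more than 1.56 FPKM in the rest. *Adam8* lay between 0.65 and 1.34 FPKM and *Adam28* between 0.77 and 1.65 FPKM. The testis genes *Adam2*, *Adam3* and *Adam18*, of sperm surface proteins, had 2, 3 and 1 estimated counts over all 6 libraries together, and *Adam32* had 16.

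Several members lie close to each other in the genome. Order and neighbours, here and below, are taken among the 63 genes alone, and other genes between them were not looked for. On chromosome 9 *Mmp13*, *Mmp12*, *Mmp3*, *Mmp10*, *Mmp8*, *Mmp27* and *Mmp20* follow each other from 7272514 to 7674968 on GRCm38. In this row *Mmp3* had a mean of 52.6 FPKM. The nearest of the 63 genes on either side had 1.005 FPKM (*Mmp12*) and 0.015 FPKM (*Mmp10*), so that 1 gene of the row was abundant. The start sites of 4 of these genes share a match to the AP-1 motif, TGAGTCA on one strand and TGACTCA on the other, which is shown in capitals with its flanks, 5′ to 3′ on the plus strand, from the RefSeq promoters of GRCm38.p6.

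Mmp13: ccccaaagtggTGACTCAtcactatcatg

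Mmp12: gacatcaacagTGAGTCAgatagaggatt

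Mmp3: ggaagcaattaTGAGTCAgttttcgggtg

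Mmp10: tagcacccatgTGAGTCAtgcttagtgac

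These windows lie at chr9:7272468-7272496, chr9:7347319-7347347, chr9:7445765-7445793 and chr9:7502268-7502296, and the motif begins 35, 44, 46 and 63 bases before the start site. For *Mmp12* the window lies inside the gene as placed above, which begins at 7344397, so its start site here is a later one. Promoters of 250 bases before to 50 bases after the start site were at hand for 39 of the 63 genes, with 43 windows in all. The motif was present in 7 of these 43 windows (16.3%), against 1709 of 32851 windows of the same length over all genes (5.2%). The other 3 were *Adam19*, *Adam29* and *Adam1b*. The levels of the 4 Mmp genes that share the motif ran from 0.015 to 52.6 FPKM, and a match is a description of the letters, not of a bound site.

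On chromosome 8 the genes *Adam18*, *Adam3*, *Adam5*, *Adam32* and *Adam9* follow each other within chr8:24602246-25017040. *Adam9* had a mean of 25.1 FPKM and the other 4, all without the zinc box, lay between 0.005 and 0.622 FPKM. *Adam32* ends 693 bases from *Adam9*. *Adamts1* and *Adamts5* are neighbours on chromosome 16, at 46.1 and 8.28 FPKM, and *Adamts15* and *Adamts8* on chromosome 9, at 10.3 and 8.98 FPKM.

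Whether the genotype altered the RNA of these genes was tested with edgeR's quasi-likelihood test on the estimated counts of all 13938 genes that passed its filter on low counts. Of the 63 genes, 45 passed (15 Mmp, 4 Timp, 13 Adam and 13 Adamts genes). A gene was called at a Benjamini-Hochberg adjusted p under 0.05 with a log2 fold change of at least 0.5 in size. None of the 45 was called, and over all genes the share called was 0.0%. With the replicate number as a block, which compares libraries of the same number, none was called either, again against 0.0% of all genes. DESeq2 called 0 of the members, 2 of which had an unadjusted p under 0.05, and 15 genes over the whole table. The fold changes, given as log2 of Npr1+/- over WT, ran from -2.04 for *Mmp12* to 0.72 for *Adam22*.

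The median log2 fold change was -0.13 over the 45 genes, with 19 above and 26 below 0, and 0.01 over all genes tested. It was -0.17 for the 15 Mmp genes, -0.20 for the 4 Timp genes, -0.08 for the 13 Adam genes and -0.10 for the 13 Adamts genes. Single libraries moved these family medians widely. That of the Mmp genes was -0.42 without Npr1+/- 3 and -0.08 without Npr1+/- 1, and that of the Timp genes was -0.32 without Npr1+/- 2 and -0.05 without Npr1+/- 1. The sign turned for the Adam genes without WT 2 (0.006) and for the Adamts genes without Npr1+/- 3 (0.052). Without Npr1+/- 1 the median over the members was -0.07 against -0.03 over all genes, and without WT 2 it was -0.02 against 0.00.

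**Figure D2:**
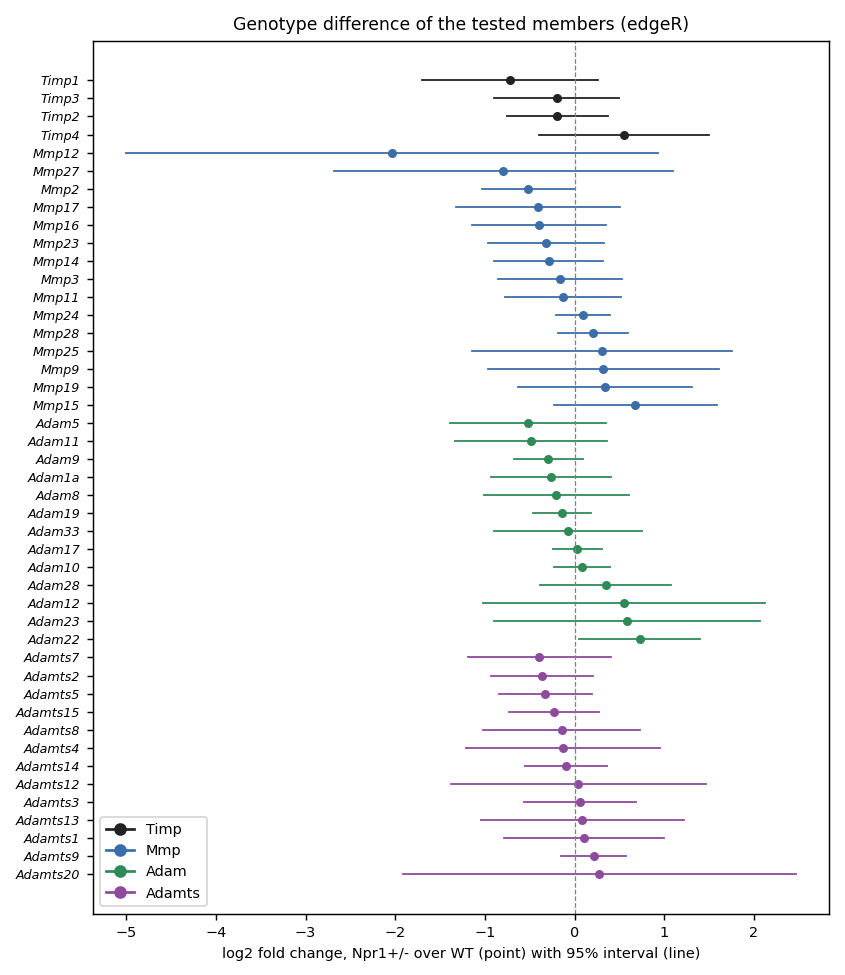
Log2 fold change of Npr1+/- over WT from edgeR (point) with its 95% interval (line) for the 45 tested genes, ordered within each family. The intervals of *Adam22* and *Mmp2* are the ones that do not reach 0, and the interval of *Mmp12* is the widest.

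At an unadjusted p under 0.05, 1 of the 45 genes was higher in Npr1+/- mice (*Adam22*), against 1.88% of all genes tested, and 1 was lower (*Mmp2*), against 1.08%. With the block, 5 were higher (*Timp4*, *Adam22*, *Adam12*, *Mmp19* and *Mmp15*), against 7.36% of all genes, and 3 were lower (*Mmp17*, *Mmp2* and *Adam11*), against 5.09%. As shares of the 45, these are 2.22% in each direction without the block and 11.1% higher and 6.67% lower with it. The 3 Npr1+/- libraries were all above the 3 WT libraries for *Adam22* alone, against 3.9% of all genes, and all below for no member, against 3.58% of all genes.

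*Adam22* had a log2 fold change of 0.72 with a standard error of 0.28 (unadjusted p = 0.0394, adjusted p = 0.999 by edgeR with Benjamini-Hochberg adjustment) and of 0.74 with the block (unadjusted p = 0.00699, adjusted p = 0.213). Its Npr1+/- libraries were at 168%, 141% and 197% of the WT libraries of the same number in normalised CPM. Without Npr1+/- 1, where the neuron markers summed to 334 FPKM and the 7 Schwann cell markers to 116 FPKM against 17.4 to 38.6 FPKM elsewhere, the log2 fold change was 0.51 (unadjusted p = 0.133). In the other 5 libraries the sums of the neuron markers overlapped between the genotypes, but most of each sum was *Uchl1*. Of the 4 neuron markers tested, *Uchl1*, *Tubb3* and *Prph* overlapped in these libraries and *Stmn2* did not. *Stmn2* was at 2.76, 2.29 and 2.72 FPKM in WT and at 4.88 and 4.16 FPKM in Npr1+/- 2 and Npr1+/- 3. The part of nerve RNA in the *Adam22* result was not tested.

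*Mmp2* had a log2 fold change of -0.52 with a standard error of 0.22 (unadjusted p = 0.0495, adjusted p = 0.999 by edgeR with Benjamini-Hochberg adjustment) and of -0.48 with the block (unadjusted p = 0.0158, adjusted p = 0.277). The Npr1+/- libraries were at 56.5%, 68.0% and 95.6% of the WT libraries of the same number. The 6 fibroblast markers, of cells known to make Mmp2, summed to 1460, 1550 and 951 FPKM in WT and to 916, 1220 and 1260 FPKM in Npr1+/- mice, and 5 of the 6 had a fold change below 0. The largest part of each sum was *Dcn*, at 749, 806 and 496 FPKM in WT and at 530, 700 and 696 FPKM in Npr1+/- mice. The single markers differed in pattern, and *Pdgfra* was at 15.4, 12.8 and 7.71 FPKM in WT and at 7.39, 8.15 and 9.89 FPKM in Npr1+/- mice. The part of fibroblast RNA in the *Mmp2* result was not tested.

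*Timp4* had a log2 fold change of 0.55 with a standard error of 0.40 and, with the block, of 0.59 (unadjusted p = 0.00537, adjusted p = 0.196 by edgeR with Benjamini-Hochberg adjustment). The Npr1+/- libraries were at 125%, 199% and 139% of the WT libraries of the same number. *Adam12* had a log2 fold change of 0.55 with a standard error of 0.66 and, with the block, of 0.78 (unadjusted p = 0.0091, adjusted p = 0.233 from the same edgeR test). Its same-numbered percentages were 112%, 238% and 202%.

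For both genes the libraries numbered 1 were high in each genotype. Without WT 1 the log2 fold change was 1.04 for *Timp4* and 1.62 for *Adam12*, and without Npr1+/- 1 it was 0.26 and 0.02. The 5 fat markers summed to 8560, 1930 and 1940 FPKM in WT and to 14500, 4270 and 3880 FPKM in Npr1+/- mice, most of it *Fabp4*. All 5 had a fold change above 0, and in 4 of them each Npr1+/- library was above the WT library of the same number, while *Lep* was at 6.40 FPKM in WT 3 and 1.88 FPKM in Npr1+/- 3. The 4 brown fat markers summed to 1700 FPKM in WT 1 and 1730 FPKM in Npr1+/- 1 against 220 to 506 FPKM elsewhere. The part of fat RNA in these results was not tested.

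*Mmp17* had a log2 fold change of -0.41 without the block and -0.45 with it (unadjusted p = 0.00934, adjusted p = 0.235 by edgeR), with same-numbered percentages of 62.3%, 84.2% and 74.3%. Without the block it was -0.12 when Npr1+/- 1 was left out and -0.64 when WT 1 was. *Adam11* had -0.49 and -0.46 (unadjusted p = 0.0252, adjusted p = 0.321 by edgeR), with 90.2%, 82.2% and 52.4%, and without the block it ran from -0.77 without WT 1 to -0.30 without WT 3. Both were low in the libraries numbered 1, as were the smooth muscle markers. These summed to 8330, 13900 and 14700 FPKM in WT and to 4840, 13200 and 13900 FPKM in Npr1+/- mice. The sum was lower in each Npr1+/- library than in the WT library of the same number, and most of it was *Acta2* and *Tagln*. *Cnn1* was at 1139 FPKM in WT 3 and 1166 FPKM in Npr1+/- 3. The part of smooth muscle RNA in the *Mmp17* and *Adam11* results was not tested. *Mmp19* had 0.34 without the block and 0.33 with it (unadjusted p = 0.0379, adjusted p = 0.363 by edgeR), and -0.12 without the block when Npr1+/- 1 was left out. *Mmp15* had 0.68 and 0.56 (unadjusted p = 0.0426, adjusted p = 0.379 by edgeR), although the pair numbered 3 stood at 97.4% and the pair numbered 1 at 232%. Without Npr1+/- 1 its log2 fold change was 0.10 (unadjusted p = 0.636 by edgeR).

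**Figure D3:**
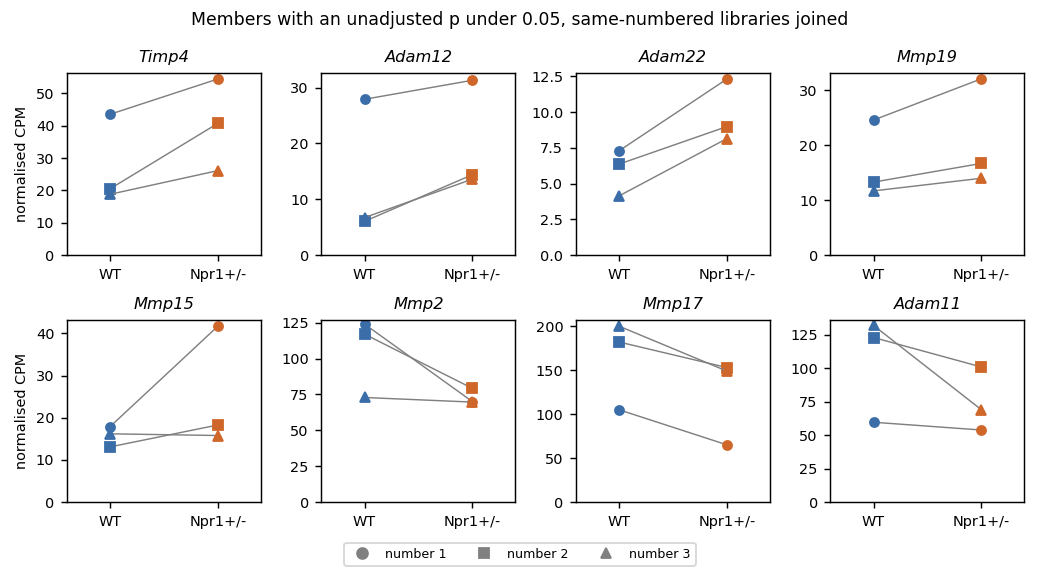
Normalised CPM of the 8 genes with an unadjusted p under 0.05 with or without the block, with a line between the WT and the Npr1+/- library of the same number, axes from 0. For *Timp4*, *Adam12* and *Mmp19* the line of number 1 lies well above the others in both genotypes and every line points up, while the lines of *Mmp2*, *Mmp17* and *Adam11* point down.

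In all 3 same-numbered pairs, 6 of the 45 genes were higher in the Npr1+/- library (13.3%, against 17.5% of all genes tested) and 10 were lower (22.2%, against 16.9%). The 6 were *Timp4*, *Mmp19*, *Mmp9*, *Adam12*, *Adam22* and *Adam23*. The 10 were *Timp2*, *Mmp2*, *Mmp16*, *Mmp17*, *Mmp23*, *Adam1a*, *Adam5*, *Adam9*, *Adam11* and *Adamts7*. For *Timp2* the percentages were 82.8%, 89.2% and 89.8%, and for *Adam9* they were 84.6%, 98.5% and 65.3%.

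*Mmp12*, *Mmp27* and *Timp1* had the fold changes furthest below 0 of the 45 genes, and none of them passed an unadjusted p of 0.05. *Timp1* was at 27.8%, 61.1% and 152% of the same-numbered WT library, with a log2 fold change of -0.72 (standard error 0.41), which was -0.34 without WT 1 and -0.12 without both libraries numbered 1. *Mmp27*, with 57 estimated counts over all 6 libraries, had -0.79 (standard error 0.79). *Mmp12* had a log2 fold change of -2.04 with a 95% interval of -5.00 to 0.93, and without WT 3 it was -0.34. For *Timp3*, the most abundant member, the log2 fold change was -0.20 with an interval of -0.90 to 0.50.

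The spread within a genotype was larger than the genotype difference for many members. Npr1+/- 1 was the lowest of the 6 libraries for 20 of the 45 genes (44.4%, against 29.6% of all genes tested) and the highest for 13 (28.9%, against 28.9%). Both libraries numbered 1 were above the other 4 for 8 members (17.8%, against 23.9% of all genes), namely *Timp4*, *Mmp9*, *Mmp19*, *Mmp25*, *Adam12*, *Adam23*, *Adamts13* and *Adamts20*. Both were below the other 4 for 11 (24.4%, against 24.1%), namely *Timp2*, *Timp3*, *Mmp11*, *Mmp17*, *Mmp23*, *Adam1a*, *Adam11*, *Adam19*, *Adam33*, *Adamts1* and *Adamts8*. The sum of smooth muscle markers was lowest in these same 2 libraries and the sums of fat and brown fat markers were highest there, and their part in the pattern was not tested.

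**Figure D4:**
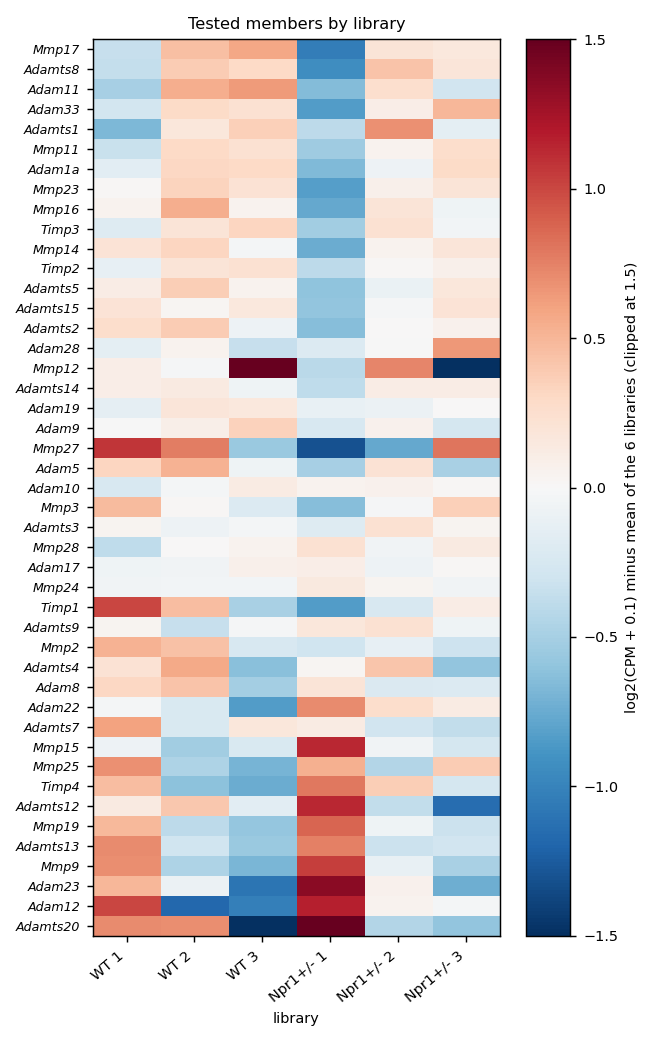
Difference of log2(CPM + 0.1) from the mean of the 6 libraries for the 45 tested genes, red for higher and blue for lower, ordered by the sum of the 2 libraries numbered 1. WT 1 and Npr1+/- 1 share their colour at both ends of the order, with *Mmp17*, *Adamts8* and *Adam11* low and *Adam12*, *Adam23* and *Adamts20* high, and *Mmp12* stands out in WT 3.

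Genes that act with these proteases were read from 7 lists, and edgeR called none of their genes. The list of proteases that activate Mmp and Adam proforms also holds *Plaur*, which is a receptor and not a protease. Of its 11 tested genes, 7 had a fold change above 0 (median 0.13). *Klk8*, a secreted serine protease, was at 3.09, 2.18 and 2.07 FPKM in WT and at 4.85, 4.33 and 6.20 FPKM in Npr1+/- mice. The genotypes did not overlap for *Klk8*, with a log2 fold change of 1.10 (standard error 0.28, unadjusted p = 0.00659, adjusted p = 0.999 by edgeR). Of the 7 tested other inhibitors, 3 were above 0 (median -0.03), and *Reck*, a membrane-anchored inhibitor of Mmp2, Mmp9 and Mmp14, was at 19.0, 28.05 and 31.4 FPKM in WT and at 11.4, 23.45 and 21.8 FPKM in Npr1+/- mice. WT 1 lay below Npr1+/- 2 and Npr1+/- 3 for *Reck*, and its log2 fold change was -0.45 (unadjusted p = 0.187, adjusted p = 0.999 by edgeR). With the block it was -0.47 (unadjusted p = 0.00626, adjusted p = 0.207 by edgeR).

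Of the 6 tested genes of proteoglycan substrates and the link protein *Hapln1*, 1 was above 0 (median -0.35). *Vcan*, the versican cut by Adamts1 and its relatives, was at 24.4, 29.0 and 30.8 FPKM in WT and at 11.8, 21.65 and 19.9 FPKM in Npr1+/- mice. All Npr1+/- libraries were below all WT libraries for *Vcan*, with a log2 fold change of -0.69 (standard error 0.22, unadjusted p = 0.0182, adjusted p = 0.999 by edgeR). *Adamtsl3*, a secreted relative of the Adamts enzymes without their protease domain, had -0.60 (unadjusted p = 0.0317, adjusted p = 0.999 by edgeR), and 2 of the 6 genes of its list were above 0. The list of iRhoms and tetraspanins that carry Adam10 or Adam17 also holds *Frmd8*, which is neither. Of its 7 tested genes, 5 were above 0 (median 0.07), and 4 of the 7 other metalloproteinases were (median 0.23).

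Of the 7 tested proteins shed by Adam10 and Adam17, 6 were above 0 (median 0.22). *Notch1* had a log2 fold change of 0.46 and *Cdh5*, the cadherin of endothelial junctions, of 0.61, with unadjusted p-values of 0.0905 and 0.169 by edgeR. *Cdh5* is also an endothelial marker. All 6 endothelial markers had a fold change above 0, with sums of 116 to 196 FPKM in WT and 220 to 298 FPKM in Npr1+/- mice. The largest part of each sum was *Pecam1*. In FPKM the genotypes did not overlap for *Pecam1*, *Vwf* and *Nos3*, and they overlapped for *Cdh5*, *Tek* and *Kdr*. *Cdh5* was at 31.31 FPKM in WT 1, above Npr1+/- 2 (29.64 FPKM) and Npr1+/- 3 (24.94 FPKM). The part of endothelial RNA in the list of shed proteins was not tested.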

How the data were processed

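After read filtering by SOAPnuke, the authors ran Bowtie2 for alignment and RSEM for quantification, and the submitters' processing notes name the mm10 build. They deposited an estimated count (expected count, not normalized) and an FPKM value, which RSEM scales by transcript length and library size, for each gene and library. The columns are headed WT and Knockdown, and the latter were taken as the Npr1+/- libraries of the same number. The pooled means of each genotype were not used. Symbols and gene coordinates came from a RefSeq table of GRCm38.p6 by NCBI gene identifier (18070 of 18191 matched). Coding sequences and the positions of the zinc box came from GENCODE M21 on GRCm38, the same build as mm10. Overlapping and antisense genes cannot be told apart, since strand is not stated for the counting.

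Estimated counts were rounded and fitted across all genes with edgeR 4.0.16 in R 4.3.3 (TMM, filterByExpr with a minimum count of 10, quasi-likelihood test, Benjamini-Hochberg adjustment). CPM are counts scaled by the TMM library size, and overlap was read from log2 CPM with a prior count of 2. Alternatives were DESeq2 1.42.0, its size factors, no filter, limma 3.58.1 on log2(FPKM + 0.1), kept to a mean FPKM of 0.1 or more, the replicate block, and each library left out. The test was tried on simulated counts with large changes, where edgeR called 172 of 198 changed genes with 14 false calls among 13774 genes. Deviations of same-numbered libraries from their genotype means correlated at 0.645, 0.386 and 0.235 over all genes, and those of differently numbered libraries at -0.58 to 0.445. WT 1 correlated only with Npr1+/- 1 above 0. WT 2 correlated at 0.371 with Npr1+/- 3, close to its own number, and WT 3 more with Npr1+/- 2 (0.445) than with Npr1+/- 3 (0.235). The correlations therefore do not settle whether the numbers 2 and 3 pair the libraries, and the labels do not say what they share. The block and the same-numbered percentages were used as an alternative that assumes this pairing.

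The genes named are the Timp genes, the 5 of highest mean FPKM in each other family, those with an unadjusted p under 0.05 in either fit, the 3 per family with the largest highest-to-median ratio, and members known from nerve, leukocytes or testis. The zinc box, the promoter motif, the neighbours and the further members given by their level were added after values were seen. Members, lists and tests were chosen with earlier results of these data known. Sequences of the proteins were not used here.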

Additional observations from a re-analysis of the deposited data

How the results depend on the processing

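No alternative called any of the genes studied. Over the whole table edgeR called 0 genes (262 higher and 150 lower at an unadjusted p under 0.05, and 1026 and 709 with the block), DESeq2 15, edgeR without both libraries numbered 1 called 1, and DESeq2 with the replicate block, an alternative chosen after seeing the data, 268. The count of members with an unadjusted p under 0.05 was 2, against 1 with DESeq2 size factors, 0 with limma, 8 with the replicate block (edgeR and DESeq2 alike), 5 without both libraries numbered 1, and 0 to 4 when 1 library was left out (4 without WT 1, and 0 without WT 2, Npr1+/- 1 or Npr1+/- 2). The count of members whose genotypes do not overlap was 1, against 16 when read as all 3 pairs in 1 direction. It was 2 to 12 when 1 library was left out (12 without WT 1), and with fewer libraries the groups separate more easily. Shares over all genes were computed for the edgeR fits without and with the block, and for overlap and pairs over all 6 libraries. The counts of members under the other settings have no such share beside them and are not read as a result about the members. Of 427 alternative values for 33 named members, 29 had the other sign, in 14 members, and 19 members had none. None had an adjusted p under 0.05, and the smallest was 0.123. Without both libraries numbered 1, the log2 fold change was 0.27 for Mmp3, 0.058 for Adam33, -0.01 for Adam10, 0.004 for Adamts15, -0.039 for Adam17 and -0.88 for Adamts12, which also had -0.17 with limma, -0.22 with the block and -0.26 with DESeq2 and the block. When 1 library was left out, it ran from -0.006 to 0.16 for Adam10, -0.030 to 0.072 for Adam17, -0.21 to 1.01 for Adam23, -0.39 to 0.20 for Adam33, -0.29 to 0.30 for Adamts1, -0.90 to 0.43 for Adamts12, -0.39 to 0.57 for Adamts13, -0.86 to 0.64 for Adamts20, -0.42 to 0.15 for Adamts8, -0.12 to 0.74 for Mmp19, -0.009 to 0.97 for Mmp25, -0.42 to 0.044 for Mmp3 and -0.30 to 0.88 for Mmp9. The cause was not tested. Genes under 3 counts in a library cannot be compared there.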
